A study of Mus musculus with 12 samples.

Results

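The genes examined here encode the feeding peptides of the arcuate nucleus (ARC) and the receptors that these peptides act on. They are Agrp, Npy, Pomc and Cartpt for the peptides, Mc3r and Mc4r for the melanocortin receptors, and Npy1r, Npy2r and Npy5r for the neuropeptide Y receptors. All 9 were chosen by name, for their known roles, but with earlier results of these data known. All 9 were found among the 16640 genes measured. Bulk RNA-seq was performed on microdissected ARC of female mice aged 27 weeks on a mixed CD-1;129P2 background. Control mice carried floxed Esr1 alleles (Esr1fl/fl), which all groups shared, and mutant mice also carried an Nkx2-1-driven Cre (Esr1Nkx2-1Cre), so that Esr1, the gene for oestrogen receptor-α, is lost from cells of the Nkx2-1 lineage. That lineage covers much of the ventral forebrain, so the deletion is not limited to feeding neurons. Mice were fed chow or a high-fat diet (HFD) for 17 weeks, which gave 3 control chow, 4 mutant chow, 2 control HFD and 3 mutant HFD libraries. Nothing in the labels states that each library is a separate animal, and p-values then measure only the spread between these libraries.

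In the ARC, AgRP neurons and POMC neurons act in opposite directions on feeding. AgRP neurons release agouti-related peptide and neuropeptide Y, which promote feeding. POMC neurons process a precursor into melanocyte-stimulating hormones (MSH), which activate melanocortin receptors and reduce food intake, whereas agouti-related peptide blocks the same receptors. CART, the product of Cartpt, is made in many POMC neurons and in other hypothalamic cells.

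The short stretches of coding sequence through which the opposed peptides reach the melanocortin receptors are shown first, because Pomc and Agrp are set against each other throughout. They were read from GENCODE M21 transcripts on the GRCm38 build, 5′ to 3′ on the coding strand. The annotated precursor of Pomc has 235 residues and holds 3 copies of the codons for His-Phe-Arg-Trp, the core that all melanocortin agonists share, and all 3 lie in exon 3. The precursor of Agrp has 131 residues and holds 1 copy of the codons for Arg-Phe-Phe, in exon 5. The capitals mark these codons.
Pomc copy 1, chr12:3959989-3960024, plus strand: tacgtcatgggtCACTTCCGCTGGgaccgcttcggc
Pomc copy 2, chr12:3960133-3960168, plus strand: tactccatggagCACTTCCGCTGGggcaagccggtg
Pomc copy 3, chr12:3960325-3960360, plus strand: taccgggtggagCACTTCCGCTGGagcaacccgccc
Agrp, chr8:105566804-105566836, minus strand: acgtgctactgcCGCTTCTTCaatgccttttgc

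Because the deleted gene encodes a transcription factor that binds DNA, the promoters of the peptides were also read. RefSeq promoter windows (GRCm38.p6) were given for 7 of the 9 genes, and the 250 bases before the start were searched on both strands. The RefSeq start of Cartpt lies inside the GENCODE gene given further on, so its window is not directly upstream of the GENCODE start. The palindromic oestrogen response element, in which a GGTCA arm faces its own reverse complement across 3 free bases, stood in 0 of these 7 windows and in 0.0639% of 32851 windows. Its single arm, GGTCA, stood in the windows of Pomc, Cartpt and Mc3r and in 35.2% of all windows. A TATA box (TATAAA) was found for Pomc alone among the 7, 25 bases before the start, against 12.4% of all windows. The STAT motif TTCNNNGAA and the FOXO core GTAAACA were in 0 of the 7, against 7.02% and 3.17% of all windows. The windows of the POMC-neuron peptides follow, with the matches of the single arm on either strand and of the TATA box in capitals. Such matches describe the letters only.
Pomc, chr12:3954695-3954944, plus strand: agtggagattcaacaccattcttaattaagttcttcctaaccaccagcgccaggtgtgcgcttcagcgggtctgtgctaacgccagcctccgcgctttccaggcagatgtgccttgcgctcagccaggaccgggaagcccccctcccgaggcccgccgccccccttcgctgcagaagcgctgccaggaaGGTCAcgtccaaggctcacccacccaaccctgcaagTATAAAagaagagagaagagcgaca
Cartpt, chr13:99900684-99900933, minus strand: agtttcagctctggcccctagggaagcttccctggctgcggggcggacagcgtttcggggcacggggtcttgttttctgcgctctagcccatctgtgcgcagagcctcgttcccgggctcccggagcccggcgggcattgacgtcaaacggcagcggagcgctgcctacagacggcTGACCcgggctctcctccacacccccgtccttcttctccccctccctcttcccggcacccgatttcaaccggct

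Values are the deposited abundance signal, normalised by the authors for gene length and depth, so that levels can be set against each other between genes. The 12 column sums ran from 922172 to 1254999 and the number of genes listed at 0 reached 1768, in mutant chow 3. Sequencing depth is not known. Esr1 was examined as the check of the labels. Its signal was 17.8, 7.29 and 19.8 in control chow and 6.05, 3.15, 1.93 and 1.65 in mutant chow. It was 15.3 and 22.4 in control HFD but 10.7, 16.6 and 11.9 in mutant HFD, where it overlapped the controls. Esr1 therefore went against the label on HFD, and the last group is called the libraries labelled mutant HFD. Every comparison that uses it (HFD against chow in mutants, genotype on HFD, the interaction and both averages) takes the label as given. Of the arcuate markers outside the feeding peptides, Tac2 (127 to 1026), Ghrh (98.0 to 434) and Th (78.4 to 193) were present in all 12 libraries.

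Agrp encodes the melanocortin antagonist itself (ENSMUSG00000005705, GRCm38 chromosome 8, 105566698 to 105637393, minus strand, protein coding). Its signal was 168, 787 and 367 in control chow and 291, 236, 282 and 446 in mutant chow. It was 65.9 and 366 in control HFD and 385, 115 and 195 in the libraries labelled mutant HFD. All 4 groups overlapped, and both the lowest and the highest value came from control mice. The means were 441 ± 316 (SD, n = 3), 314 ± 91.6 (n = 4), 216 ± 212 (n = 2) and 232 ± 138 (n = 3). Each gap between neighbours in this order was smaller than the spread within groups. One annotated Agrp transcript reaches far upstream, and 114 of the 1013 exonic bases are shared with Ctcf on the opposite strand. The non-coding RNA gene Gm5914, on the same strand as Agrp, also shares 114 and was not among the genes analysed here. Whether reads were assigned by strand is not stated.

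Npy encodes neuropeptide Y (ENSMUSG00000029819, chromosome 6, 49822710 to 49829507, plus strand), which AgRP neurons release along with agouti-related peptide. Its signal was 608, 2183 and 849 in control chow and 802, 1045, 1378 and 1479 in mutant chow. Control HFD had 227 and 1315, and the libraries labelled mutant HFD had 924, 285 and 382. On HFD, 3 of 5 libraries fell below every chow library, but control HFD 2 and the first of the libraries labelled mutant HFD lay within the chow range. The means were 1213 ± 848 (n = 3) in control chow and 1176 ± 310 (n = 4) in mutant chow. They were 771 ± 769 (n = 2) in control HFD and 530 ± 344 (n = 3) in the libraries labelled mutant HFD.

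Pomc encodes the precursor of the melanocortin agonists (ENSMUSG00000020660, chromosome 12, 3954951 to 3960642, plus strand). Its signal was 2147, 2410 and 1211 in control chow and 1009, 1986, 4249 and 2740 in mutant chow. It was 1096 and 2645 in control HFD and 1555, 1676 and 1665 in the libraries labelled mutant HFD. The chow groups overlapped throughout, and the values on HFD lay inside the chow range. The spread in mutant chow (2496 ± 1366, n = 4) contrasted with that in the libraries labelled mutant HFD (1632 ± 66.8, n = 3), a contrast that was not tested. Pomc was among the most abundant transcripts of the ARC, at places 12 to 116 in the order of all genes in a library. Corticotrophs and melanotrophs of the pituitary also make Pomc. Of 10 pituitary markers 7 were measured, and their summed signal ran from 560 to 6032 in control chow, 1113 to 2101 in mutant chow, 126 to 1476 in control HFD and 914 to 1910 in the libraries labelled mutant HFD. Most of the sum was Cga, the glycoprotein hormone α-subunit (82.0 to 4802). Tshb was at 22.5 to 655, Lhb at 8.76 to 428, Pitx1 at 7.38 to 102 and Fshb at 0.197 to 20.6. Tbx19, which marks Pomc-producing pituitary cells, was at 2.59 to 7.53, and Prl was listed at 0 in 7 of 12 libraries. Gh, Pou1f1 and Pax7 were not among the genes analysed here. The part of pituitary cells in the Pomc signal was not tested.

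Cartpt (ENSMUSG00000021647, chromosome 13, 99898489 to 99901091, minus strand) had a signal of 780, 1374 and 604 in control chow and of 752, 737, 1050 and 1085 in mutant chow. It was 376 and 972 in control HFD and 669, 843 and 677 in the libraries labelled mutant HFD. The groups overlapped, and as for Agrp and Npy the lowest value was in control HFD 1 and the highest in control chow 2. The highest value was 3.65 times the lowest for Cartpt and 4.21 times for Pomc, against 9.62 times for Npy and 11.9 times for Agrp.

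**Figure D1:**
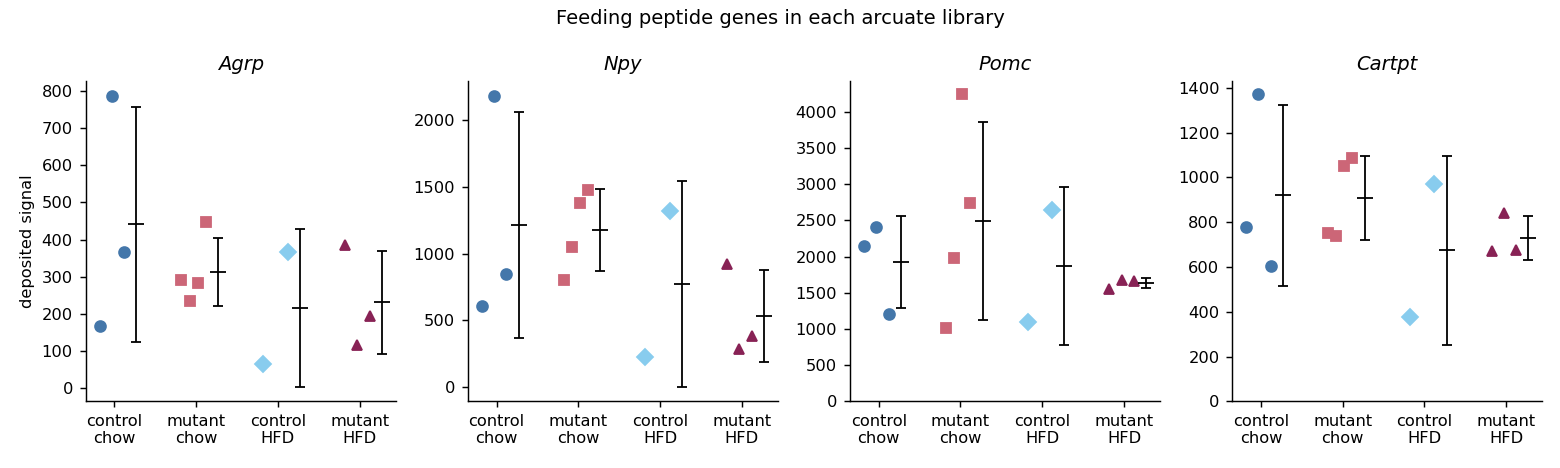
Deposited signal of Agrp, Npy, Pomc and Cartpt (vertical axes, starting near 0) in each of the 12 libraries by group; points are libraries, and the black bar beside them is the group mean with its SD. Groups overlap for all 4 genes, Agrp runs from 65.9 to 787, and the 3 Pomc values of the libraries labelled mutant HFD lie close together between 1555 and 1676.

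By the spread pooled over the groups, Agrp and Npy were among the most variable genes of the ARC. The pooled within-group SD on the log2 scale was 0.964 for Agrp and 0.940 for Npy, above that of 95.7% and 95.4% of the 12146 genes with a mean signal of at least 5. It was 0.677 for Pomc (above 89.0% of genes) and 0.501 for Cartpt, against a median of 0.356 over these genes. This did not hold in every group. In mutant chow, Agrp ran from 236 to 446 and Npy from 802 to 1479, against 1009 to 4249 for Pomc. In the libraries labelled mutant HFD, Agrp ran from 115 to 385 and Npy from 285 to 924, against 1555 to 1676 for Pomc. The extreme Agrp values were in control chow 2 (787) and control HFD 1 (65.9). In bulk tissue, fewer cells of a type and less RNA per cell cannot be told apart.

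The 2 pairs of peptide genes made by the same neurons varied together across the 12 libraries. This was not particular to such pairs, as Npy and Cartpt (r = 0.762, given below) also did. For Agrp and Npy, Pearson's r of the log2 values was 0.918 and Spearman's rho 0.825 (two-sided permutation p = 2e-05 and 0.00158, Benjamini-Hochberg adjusted over 11 pairs 0.00022 and 0.00759, n = 12). Without control HFD 1 and control chow 2, the libraries farthest from the median, r was 0.839, and after subtraction of the group means it was 0.952. For Pomc and Cartpt, r was 0.746 and rho 0.818 (permutation p = 0.00549 and 0.00207, adjusted 0.0151 and 0.00759), with an r of 0.880 without mutant chow 1 and mutant chow 3 and of 0.755 after subtraction of the group means. Agrp and Pomc, the opposed genes, had an r of 0.385 and a rho of 0.287 (permutation p = 0.218 and 0.368, adjusted 0.239 and 0.405), which fell to an r of 0.0943 without control HFD 1 and control chow 2. Whether these coefficients differ from each other was not tested.

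Pairs across the 2 kinds of neuron were also compared. Agrp and Cartpt had an r of 0.722 and a rho of 0.413 (permutation p = 0.0097 and 0.184, adjusted 0.0213 and 0.253). Their r was 0.136 without control HFD 1 and control chow 2, so the relation rests on those libraries. Npy had an r of 0.762 with Cartpt (rho 0.692, permutation p = 0.00356 and 0.0157, adjusted 0.0131 and 0.0287), and it was 0.797 without control HFD 1 and the second of the libraries labelled mutant HFD. With Pomc it had an r of 0.594 (rho 0.699, permutation p = 0.0402 and 0.0141, adjusted 0.0491 and 0.0287), and 0.523 without the same libraries. The Npy and Pomc relation lost its adjusted significance when any 1 of 10 libraries was left out, and that of Npy and Cartpt without control HFD 1 (r = 0.623, permutation, adjusted p = 0.0892).

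**Figure D2:**
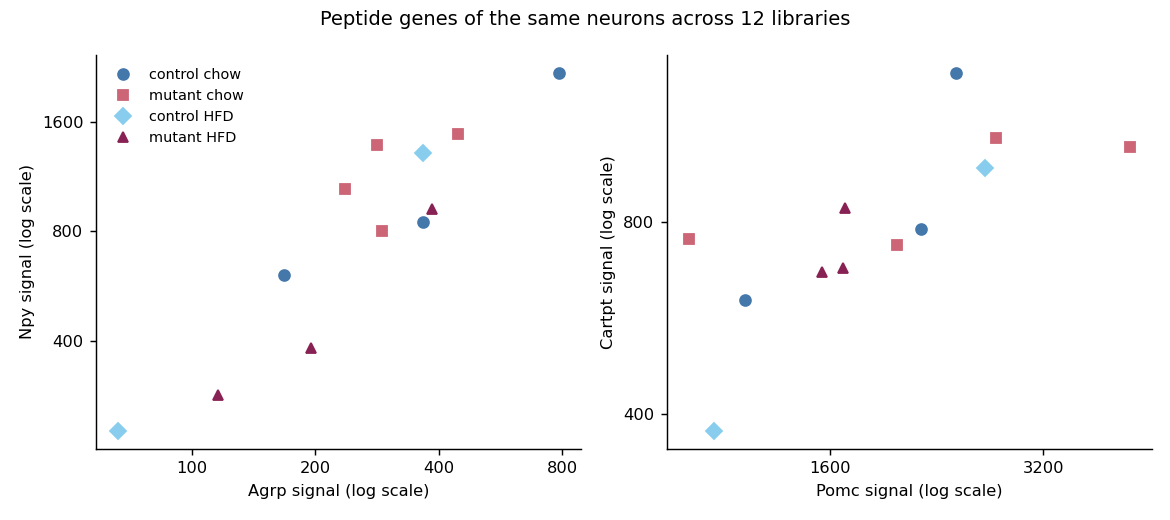
Signal of Npy against Agrp (left) and of Cartpt against Pomc (right) in the 12 libraries, on log axes, with colour and marker giving the group. The Agrp and Npy points lie along 1 line from control HFD 1 at the lower left to control chow 2 at the upper right, with libraries of all groups in between.

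Ratios within a library set the peptides against each other without the scaling of the library. They do not remove effects that differ between genes, such as that of transcript length. Npy was above Agrp in every library, at 1.95 to 4.88 times its signal. The Npy/Agrp ratio was 3.62, 2.77 and 2.32 in control chow, 2.76, 4.43, 4.88 and 3.31 in mutant chow and 3.44 and 3.59 in control HFD. The ratio was 2.40, 2.47 and 1.95 in the libraries labelled mutant HFD, below all 4 mutant chow libraries (2.27 ± 0.280, n = 3, against 3.85 ± 0.980, n = 4). This ratio was compared after its values were seen and is given without a test. The Pomc/Agrp ratio, which sets agonist precursor against antagonist, spread from 3.06 to 16.6 and overlapped between all groups. It was lowest in control chow 2 (3.06), where Agrp was highest, and highest in control HFD 1 (16.6), where Agrp was lowest. These libraries also lay at the ends of the transcript length measure given further on (0.96 and -0.51). The part of that measure in the ratio was not tested. The Pomc/Cartpt ratio ran from 1.34 to 4.05.

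Receptor genes were expressed far below the peptide genes. By mean log2 signal the order was Pomc, Npy, Cartpt, Agrp, Npy2r, Npy1r, Mc3r, Npy5r and Mc4r. Npy and Cartpt did not differ beyond their spread, with Npy the higher in 8 of 12 libraries, and neither did Mc3r and Npy5r, with Mc3r the higher in 6 of 12. Each of the other neighbours kept its order in all 12 libraries.

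Mc3r, a receptor found on AgRP neurons and some POMC neurons (ENSMUSG00000038537, chromosome 2, 172248492 to 172251114, plus strand), had a signal of 12.4, 10.6 and 18.7 in control chow and of 7.81, 9.33, 22.5 and 13.9 in mutant chow. It was 9.67 and 15.9 in control HFD and 12.01, 11.1 and 9.33 in the libraries labelled mutant HFD. The groups overlapped, and the means stood between 10.8 and 13.9.

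Mc4r (ENSMUSG00000047259, chromosome 18, 66857704 to 66860506, minus strand) is the receptor through which melanocortins reduce food intake, mainly in neurons outside the ARC. Of the 9 genes it had the lowest signal in all 12 libraries. Control chow had values of 2.63, 2.85 and 2.10, whereas mutant chow had 0.628, 1.79 and 2 values listed at 0, so these groups did not overlap. Control HFD had 1.72 and 1.14, below all control chow libraries. The libraries labelled mutant HFD had 1.17, 3.40 and 5.46. The values used here are not read counts, so a listed 0 cannot be told from a very low level. One of the libraries with a 0, mutant chow 3, also had the most genes listed at 0 (1768), and the other, mutant chow 4, had 509. The part of this in the Mc4r result was not tested.

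Npy2r, the autoreceptor of AgRP neurons (ENSMUSG00000028004, chromosome 3, 82538383 to 82548084, minus strand), was the highest receptor, at 44.8, 34.5 and 41.5 in control chow, 36.6, 36.3, 69.4 and 65.9 in mutant chow, 40.5 and 71.0 in control HFD, and 42.6, 43.9 and 39.1 in the libraries labelled mutant HFD. Its highest value was 2.06 times its lowest, the smallest range among the 9 genes. The 3 highest values belonged to mutant chow and control HFD.

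Npy1r and Npy5r are the receptors that promote feeding in response to neuropeptide Y. They are neighbours on chromosome 8, transcribed away from each other from starts 9064 bases apart (Npy1r, ENSMUSG00000036437, 66697192 to 66706792, plus strand; Npy5r, ENSMUSG00000044014, 66679965 to 66688128, minus strand). Npy1r was at 40.8, 22.6 and 26.0 in control chow, 22.7, 22.9, 30.5 and 24.4 in mutant chow, 16.6 and 34.1 in control HFD, and 21.8, 32.0 and 29.3 in the libraries labelled mutant HFD. Npy5r was at 15.2, 9.69 and 9.76, then 9.10, 9.93, 30.1 and 8.30, then 9.02 and 14.2, and 9.57, 13.8 and 11.5 in the same order of groups. All groups overlapped for both genes, and the value of 30.1 for Npy5r in mutant chow 3 stood apart from the rest. Across libraries the neighbours had an r of 0.630 and a rho of 0.818 (permutation p = 0.0301 and 0.00185, adjusted 0.0473 and 0.00759). The r was 0.665 without control HFD 1 and control chow 1, and its adjusted significance was lost when any 1 of 10 libraries was left out.

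**Figure D3:**
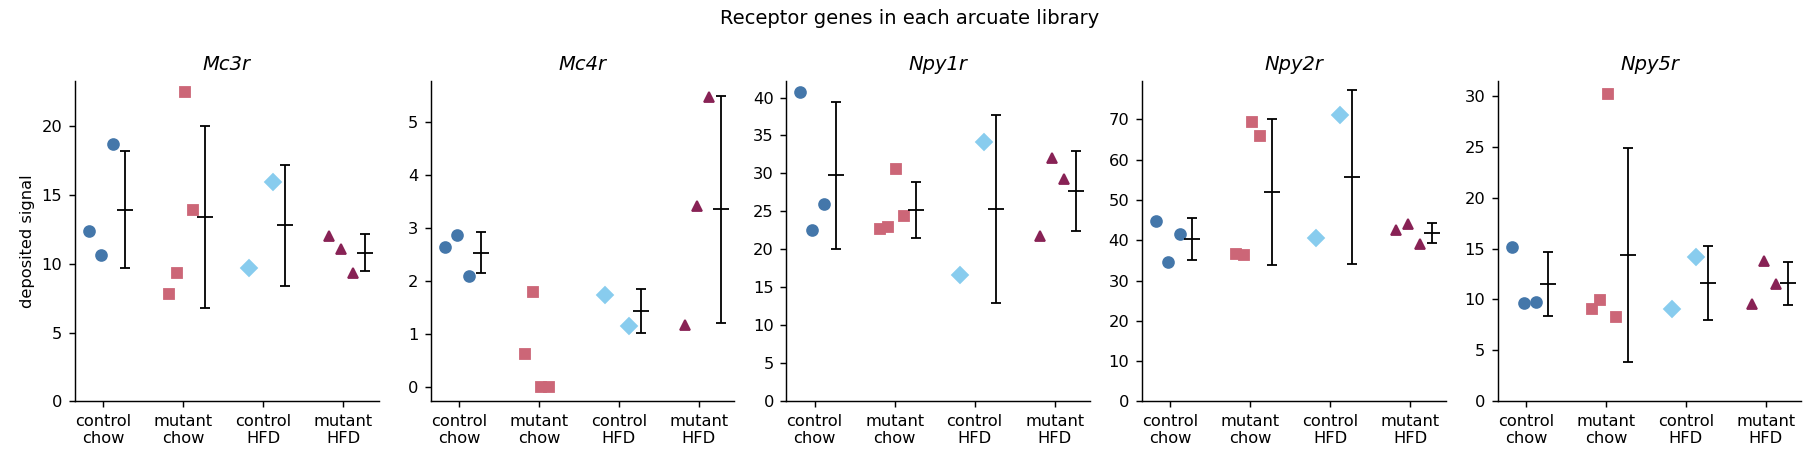
Deposited signal of the 5 receptor genes (vertical axes, starting near 0) in each library by group; points are libraries, and the black bar is the group mean with its SD, left out for Mc4r in mutant chow because 2 of its 4 values are listed at 0. The Mc4r values of mutant chow (0 to 1.79) lie below those of control chow (2.10 to 2.85), and 1 Npy5r value in mutant chow, 30.1, stands apart.

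Whether loss of oestrogen receptor-α altered the feeding genes was asked first on chow, where Esr1 followed the labels. Mc4r had the lowest p-value of the 9 genes, with a difference of -1.27 (SE 0.45) on the log2(signal + 1) scale, lower in mutants in all 4 libraries, but it did not pass the adjusted threshold (unadjusted p = 0.0157, limma with Benjamini-Hochberg adjusted p = 0.982). The size of this difference depends on the pseudocount, and was -2.93 with 0.1 in place of 1. The peptide genes had differences within their errors. The log2 difference was -0.26 for Agrp (95% confidence interval -1.57 to 1.05), 0.14 for Npy (-1.15 to 1.42), 0.25 for Pomc (-0.70 to 1.21) and 0.04 for Cartpt (-0.68 to 0.76). These intervals still hold changes of more than 1 log2 unit for Agrp, Npy and Pomc, so the test does not show that the groups are alike. The other receptors were at -0.12 for Mc3r (-0.87 to 0.63), -0.20 for Npy1r (-0.80 to 0.40), 0.30 for Npy2r (-0.28 to 0.89) and 0.12 for Npy5r (-0.74 to 0.98). In all, 0 of 9 genes passed the adjusted threshold of 0.05 by limma, against 0.019% of the 15801 genes tested, and 1 of 9 had an unadjusted p under 0.05, against 4.34%. Groups did not overlap for 1 of 9, against 4.51%. The median difference was 0.04 over the 9 genes and 0.01 over all genes. The sign for Agrp turned to 0.30 without control chow 2.

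HFD was compared with chow next, as the diet itself acts on these neurons. In the libraries labelled mutant HFD, Npy was lower than in mutant chow, with a log2 difference of -1.30 (SE 0.59, interval -2.58 to -0.01), and a mean at 45.1% of that on chow, but it did not pass the adjusted threshold (unadjusted p = 0.0478, limma with Benjamini-Hochberg adjusted p = 0.916). Mc4r was higher, by 1.44 (SE 0.45, interval 0.45 to 2.42, unadjusted p = 0.00779, adjusted p = 0.760). The difference was -0.57 (-1.87 to 0.74) for Agrp, -0.43 (-1.39 to 0.52) for Pomc and -0.30 (-1.02 to 0.42) for Cartpt. For the receptors it was -0.19 (-0.94 to 0.56) for Mc3r, 0.13 (-0.47 to 0.72) for Npy1r, -0.24 (-0.82 to 0.34) for Npy2r and -0.10 (-0.96 to 0.76) for Npy5r. By limma 0 of 9 passed the adjusted threshold, against 0.019% of genes, 2 of 9 had an unadjusted p under 0.05, against 5.37%, and 0 of 9 did not overlap, against 7.99%. Of the 9 differences 7 were negative, with a median of -0.24 against -0.02 over all genes. As Esr1 signal there overlapped that of controls, these directions rest on a label that the targeted gene did not clearly bear out.

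In controls, where only 2 HFD libraries were available, 7 of 9 differences were negative, with a median of -0.26 against -0.0068 over all genes. Control HFD 1 had the lowest Agrp, Npy, Cartpt and Npy1r of the 12 libraries, so these signs are not independent. Agrp had a log2 difference of -1.22 (SE 0.72) and Npy of -0.93 (SE 0.71), both with intervals across 0. These came from control HFD 1: without it they were 0.0037 for Agrp and 0.34 for Npy. In all, 0 of 9 genes passed the adjusted threshold by limma, against 0% of all genes, 0 of 9 had an unadjusted p under 0.05, against 3.54%, and 1 of 9, Mc4r, did not overlap, against 14.1%. The lowest adjusted p was 0.998.

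Averaged over genotypes, Npy was lower on HFD by a log2 difference of -1.11 (SE 0.46, unadjusted p = 0.0318, limma with Benjamini-Hochberg adjusted p = 0.886), and it was the 1 gene of 9 with an unadjusted p under 0.05, against 5.29% of all genes. Agrp was at -0.89 (SE 0.47, unadjusted p = 0.0801), Cartpt at -0.41 (SE 0.26) and Pomc at -0.27 (SE 0.34). By limma 0 of 9 passed the adjusted threshold, as for 0% of all genes. Without control HFD 1 the difference was -0.48 for Npy and -0.28 for Agrp, without control HFD 2 it was -1.74 and -1.51, and without both control HFD 1 and control chow 2 it was -0.21 and -0.0041.

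On HFD, the libraries labelled mutant were compared with controls. Mc4r was at 0.71 (SE 0.54) and every interval crossed 0. By limma 0 of 9 genes passed the adjusted threshold, against 0.00633% of all genes, 0 of 9 had an unadjusted p under 0.05, against 2.21%, and 0 of 9 did not overlap, against 15.7%. The genotype by diet interaction asks whether the effect of genotype differs between diets. For Mc4r it was 1.98 (SE 0.71, unadjusted p = 0.0156, limma with Benjamini-Hochberg adjusted p = 0.999), and this was the 1 gene of 9 with an unadjusted p under 0.05, against 3.44% of all genes, while 0 of 9 passed the adjusted threshold, against 0%. The interaction of Esr1 itself was 1.44 (SE 0.63), with its signal at 13.1 ± 3.11 (n = 3) in the libraries labelled mutant HFD against 3.20 ± 2.01 (n = 4) in mutant chow. Averaged over diets, with the same limit, 0 of 9 genes differed by genotype at the adjusted threshold, against 0.00633%, or at an unadjusted p under 0.05, against 2.85%.

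**Figure D4:**
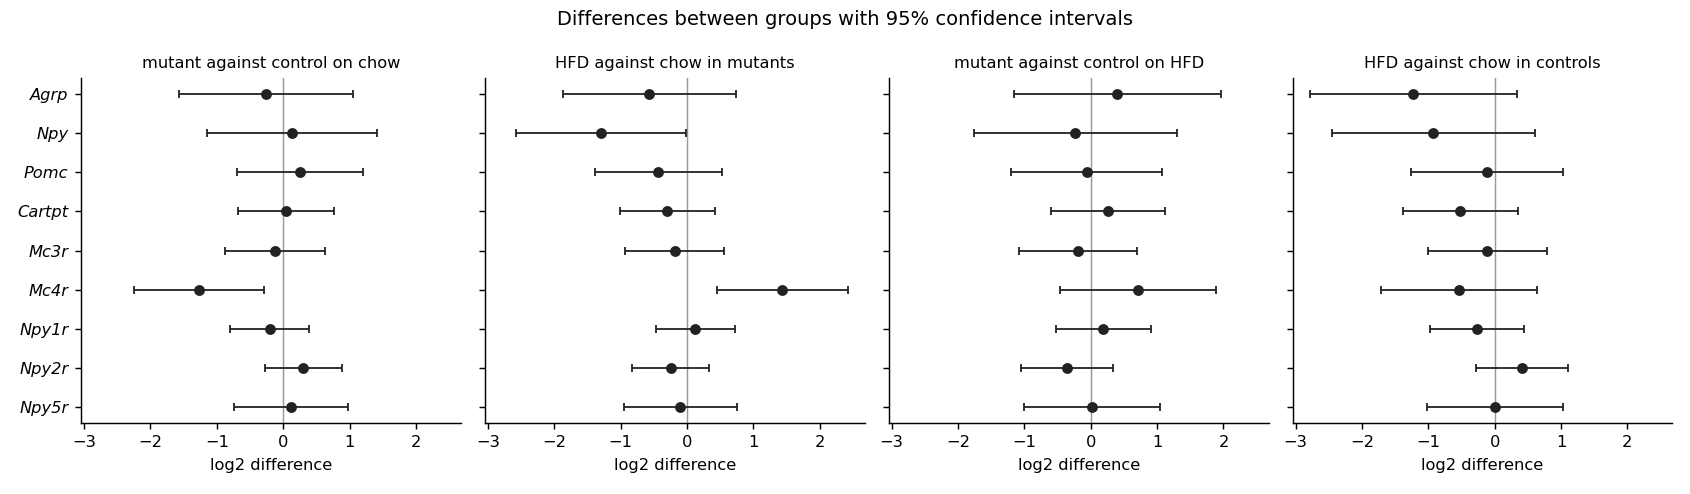
Log2 differences of the 9 genes (points) with 95% confidence intervals (bars) in 4 comparisons of groups, from limma on log2(signal + 1). All intervals cross 0 except those of Mc4r on chow (-2.25 to -0.28) and of Mc4r and Npy for the libraries labelled mutant HFD against mutant chow; none passed the adjusted threshold.

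Other genes of the melanocortin and neuropeptide Y systems were followed through a list of 26 that covered peptide processing enzymes, receptor accessory proteins, further ligands and receptors, and downstream genes. Of these 7 were not analysed here, 1 did not pass the filter on low values and 18 were tested, and 0 passed the adjusted threshold by limma in any of the 7 comparisons. On chow, 2 of 18 had an unadjusted p under 0.05, against 4.34% of all genes. Bdnf, a growth factor downstream of Mc4r, was at 1.37 (SE 0.47, unadjusted p = 0.0120, limma with Benjamini-Hochberg adjusted p = 0.982). Npy4r, the pancreatic polypeptide receptor, was at -0.995 (SE 0.34, unadjusted p = 0.0123, adjusted p = 0.982). Bdnf was at 3.37, 1.73 and 1.44 in control chow and at 8.91, 8.85, 7.42 and 3.86 in mutant chow. Npy4r was under 1.8 in every library. When the libraries labelled mutant HFD were compared with mutant chow, 2 of 18 had an unadjusted p under 0.05, against 5.37% of all genes. These were Npy4r at 0.85 (adjusted p = 0.886) and Prcp, an enzyme that inactivates α-MSH, at -0.72 (adjusted p = 0.916). In the processing chain of Pomc, the convertases Pcsk1 (24.3 to 53.2) and Pcsk2 (42.2 to 87.2), the carboxypeptidase Cpe (1001 to 1707) and the amidating enzyme Pam (211 to 338) were present in all libraries. Mrap2, an accessory protein of Mc4r, was at 30.2 to 54.7, well above Mc4r itself.

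Genes that mark AgRP and POMC neurons or carry their hormonal input were listed as well. All 17 were tested and 0 passed the adjusted threshold by limma in any comparison. The lowest p-value was that of Nhlh2, a transcription factor of POMC neurons, for the libraries labelled mutant HFD against mutant chow (1.79, SE 0.46, unadjusted p = 0.00215, adjusted p = 0.564), with values of 3.42, 5.24, 0.835 and 6.85 in mutant chow and 9.94, 21.9 and 13.7 in the libraries labelled mutant HFD. Acvr1c was at -0.65 (SE 0.26, adjusted p = 0.886) in the same comparison. On chow, Lepr, the leptin receptor, was at 1.16 (SE 0.47) and Nhlh2 at -1.02 (SE 0.46), both with an adjusted p of 0.982. Lepr was at 7.44, 2.59 and 2.91 in control chow and at 7.55, 6.99, 14.2 and 13.1 in mutant chow, groups that overlapped.

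The genes whose pattern over the 12 libraries was most like that of Agrp were Rhoc (r = 0.952), Tspo (0.933) and Calr (0.927) among 12146 genes, and Npy came 7th. For Pomc they were Fam3c (0.942), Klhl26 (0.903) and Rcn2 (0.868), and Cartpt came 83rd. These are descriptions over libraries of 4 groups and were chosen as the highest of many.

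Several measures of the library moved with Agrp and Npy. As a measure of transcript length, the median centred log2 value of the 688 genes with a longest transcript of at most 1000 bases was set against that of the 4677 genes with one of at least 4000 bases. The difference was 0.96 in control chow 2, where Agrp, Npy and Cartpt were highest, and -0.51 in control HFD 1, where they were lowest, and between -0.32 and 0.37 elsewhere. The measure was added after the values were seen, so the p-values given with it are not those of a planned test. Agrp and Npy are themselves short, at 734 and 566 bases, and the receptors have longest transcripts of 2314 to 3364 bases. Agrp had an r of 0.814 and a rho of 0.790 with this measure (permutation p = 0.00181 and 0.00301, adjusted 0.00995 and 0.00828), and an r of 0.556 without control HFD 1 and control chow 2. For Npy, r was 0.678 and rho 0.587 (permutation p = 0.0125 and 0.05, adjusted 0.0229 and 0.0785), and r was 0.551 without control HFD 1 and the second of the libraries labelled mutant HFD. Without control chow 2 alone, r for Npy was 0.571 and no longer passed the adjusted threshold, and the same held without control HFD 1 alone. Cartpt had an r of 0.621 and a rho of 0.308 (permutation p = 0.0386 and 0.330, adjusted 0.0491 and 0.403), which rested on control HFD 1 and control chow 2 (-0.166 without them). Pomc had an r of 0.157 and a rho of 0.0839 (permutation p = 0.632 and 0.802, adjusted 0.632 and 0.802), and 0.558 without mutant chow 1 and mutant chow 3.

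Many cell type markers also differed between these libraries. Of the 7 pituitary markers 6 were higher in control chow 2 than in control HFD 1, with Cga at 4802 and 82.0, and Tbx19 was lower (2.59 and 4.81). The tanycyte markers Rax (146 and 23.6) and Crym (56.9 and 21.4) were higher, and Col25a1 was not (68.6 and 77.6). The summed signal of 3 tanycyte markers was 272 and 123 in these libraries and 137 to 230 in the others. All 3 neuron markers went the opposite way. Syt1, a synaptic vesicle gene of neurons, was at 68.2 in control chow 2 and 214 in control HFD 1, and their sum was 513 and 1102, against 534 to 855 in the others. Markers of neighbouring nuclei varied too. The sum of 5 paraventricular and supraoptic markers was 174 to 1191 in control chow, 237 to 4823 in mutant chow, 363 to 592 in control HFD and 1419 to 3691 in the libraries labelled mutant HFD. That of 4 suprachiasmatic markers, Avp being in both lists, was 125 to 361, 98.4 to 3084, 226 to 261 and 704 to 2577 in the same order. On HFD both sums were wholly higher in the libraries labelled mutant than in controls, and single genes did not overlap there for 15.7% of all genes. Most of the suprachiasmatic sum was Avp on HFD (195 and 236 in controls, 677, 2553 and 1926 in the libraries labelled mutant). Of the other suprachiasmatic markers, Six6 was wholly lower in the libraries labelled mutant (16.3, 14.2 and 19.7 against 20.5 and 22.0). Rgs16 overlapped, and Vip was wholly higher but at most 1.49. The sum of 3 ventromedial markers was 23.2 to 64.2, 50.1 to 145, 35.4 to 124 and 78.6 to 115, and that of 2 lateral hypothalamic markers 6.23 to 67.0, 13.9 to 96.9, 2.34 to 28.5 and 29.6 to 71.5. The part of all these measures in the values of the 9 genes was not tested.

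**Figure D5:**
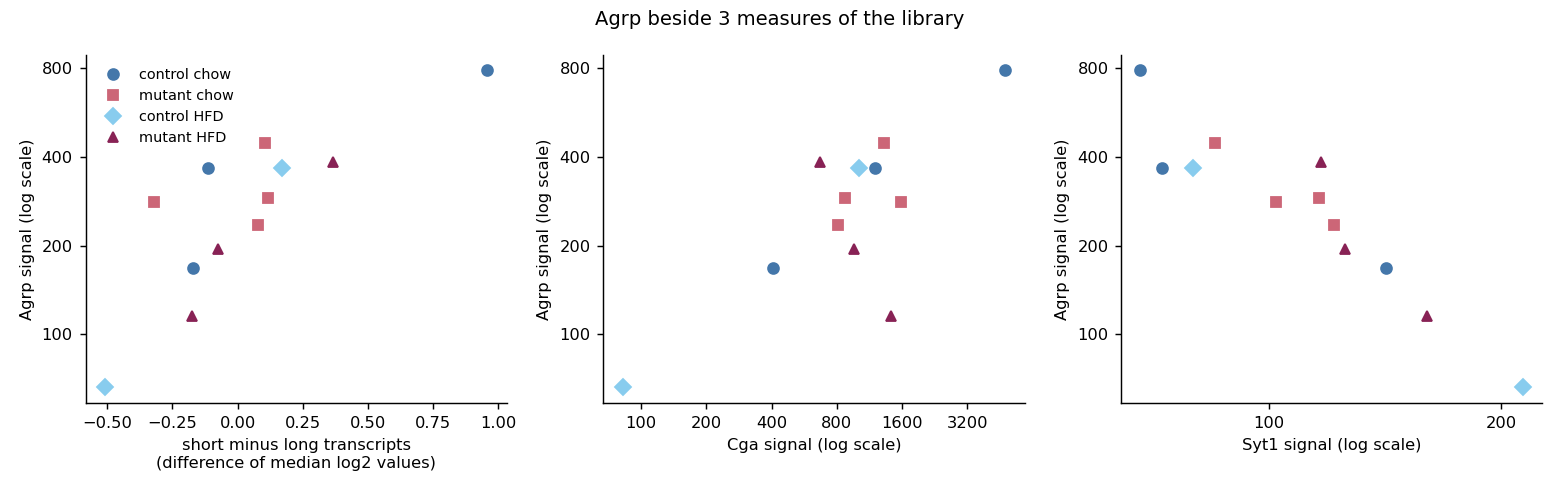
Agrp signal (vertical axes, log scale) in the 12 libraries against the short minus long transcript measure (left), Cga signal (middle, log scale) and Syt1 signal (right, log scale), with colour and marker giving the group. Control chow 2 and control HFD 1 lie at opposite ends of all 3 plots, with Agrp at 787 and 65.9.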

How the data were processed

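ARC RNA was sequenced on a NovaSeq instrument and, per the labels and the study's methods, the authors assigned reads to the mm10 transcriptome with Kallisto in gene mode and used Sleuth. The deposited signal is near the scale of a TPM, which is normalised for length and depth. The exact scaling, software versions, annotation release, gene filter and strand are not given in the sources used here. Depth is unknown, so no counting error is given. Of 16640 genes, 16633 matched a GENCODE M21 symbol. No library columns were unmapped, and no pair of libraries was identical.

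Genes with a signal of at least 1 in at least 2 libraries (15801, all 9 members included) were fitted as log2(signal + 1) with limma 3.58.1 in R 4.3.3, with a mean-variance trend, 1 mean per group over 12 libraries and 7 two-sided contrasts, adjusted over all genes by the Benjamini-Hochberg method at 0.05. The pseudocount of 1 understates changes of low genes such as Mc4r. Correlations used 100000 permutations. Group values are mean ± SD.

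The members and lists were chosen with earlier results of these data known. The named genes are the 9 members, Esr1, the 3 nearest patterns of Agrp and Pomc, and, from each list, the 2 lowest unadjusted p-values in a comparison; other listed genes whose levels are given were picked after their values were seen. GGTCA alone and the transcript length measure were also added then. Replicate numbers follow deposition order and pair nothing. Alternatives were rescaled columns, quantile normalisation, no trend, array weights, no filter, a minimum mean of 5, 0.1 as pseudocount, a fit to the compared groups alone, and leaving out each library.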

Additional observations from a re-analysis of the deposited data

Results flagged for a closer look

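The Npy5r signal of mutant chow 3 was 30.1, against 8.30 to 9.93 in the other 3 mutant chow libraries, and its gap to the nearest of them was 0.925 of the range of the group, above Dixon's 95% critical value for 4 samples. It was the 1 such value among the 14 compared in mutant chow, the only group with 4 libraries, and chance alone marks about 1 in 20 groups. The same library had the highest Pomc (4249), Mc3r (22.5), Npy1r (30.5) and Npy2r (69.4) of its group and the most genes listed at 0 (1768); their part in the Npy5r value was not tested.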

How the results depend on the processing

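The count of genes passing the adjusted threshold was 0 of those tested in all 151 combinations of comparison and alternative. Mc4r was not tested at a mean of at least 5. Of 563 log2 differences under an alternative, 29 changed sign. Among genotype differences on chow, leaving out each library in turn gave -0.82 to 0.30 for Agrp, -0.25 to 0.67 for Npy, -0.063 to 0.63 for Pomc, -0.22 to 0.38 for Cartpt, -0.39 to 0.10 for Mc3r, -0.37 to 0.042 for Npy1r and -0.29 to 0.32 for Npy5r. For HFD in mutants it gave -0.39 to 0.085 for Mc3r and -0.27 to 0.31 for Npy5r, and for HFD in controls -2.45 to 0.0037 for Agrp and -2.19 to 0.34 for Npy. For HFD averaged over genotypes it gave -0.59 to 0.045 for Pomc. Array weights turned Npy5r on chow to -0.20, and for HFD in mutants Npy5r to 0.22 and Mc3r to 0.034. Added after the data were seen, leaving out both control chow 2 and control HFD 1 turned Agrp on chow to 0.30, Agrp and Npy for HFD in controls to 0.56 and 0.87, and Pomc and Cartpt averaged over genotypes to 0.14 and 0.10, and left Npy and Agrp averaged over genotypes at -0.21 and -0.0041. The transcript length measure as a covariate, also added, turned Agrp on chow to 0.19. The cause was not tested. Mc4r kept its direction on chow, for HFD in mutants and in the interaction under every alternative that tested it, with adjusted p from 0.438 to 1.000, but with a pseudocount of 0.1 its differences were -2.93, 3.09 and 3.88.

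Of 165 correlations under an alternative, 45 lost adjusted significance, none of them that of Agrp with Npy (0.878 to 0.939), Pomc with Cartpt (0.706 to 0.819) or Agrp with transcript length (0.729 to 0.868). The 165 include 15 each for Agrp with Pomc and Pomc with transcript length, which had no adjusted significance to lose. Pomc with transcript length turned to -0.0243 with rescaled columns and -0.258 with quantile normalisation, and ran from -0.0337 to 0.455 without single libraries. In the order of levels, Npy and Cartpt changed places when any 1 of 8 libraries was left out, and Mc3r and Npy5r without control chow 3. No paired analysis was possible because the replicate numbers follow the order of deposition. Groups of 2 to 4 libraries and unknown depth limit what could be detected.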
